A study of Mus musculus with 2 samples.

Results

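The genes described here are the 9 genes of cone phototransduction listed for this work: Opn1sw, Opn1mw, Arr3, Gnat2, Gnb3, Gngt2, Pde6c, Pde6h and Cngb3. They were found by symbol among the 30905 genes of both count matrices, and all 9 had UMIs in both libraries. Their levels were followed in cone-like, rod-like, precursor-like and bipolar-like cells of mouse retina at postnatal day 7 (P7), measured by droplet single-cell RNA sequencing of transcript 3′ ends. One library pooled 2 control retinas and the other 2 Mettl3-CKO retinas, from pups of 1 litter. In the Mettl3-CKO animals (Six3-Cre+, Mettl3 floxed/floxed), Six3-Cre, which acts in retinal progenitor cells (RPCs) from early eye development, removed Mettl3, the gene of the enzyme that methylates adenosines of mRNA. The study describes the deletion for the central retina. The genotype of the controls was given only as control. With 1 library per group there was no replicate, so no test was possible and each difference is between a single pair of libraries. The 95% intervals hold counting error alone.

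Cones detect light when an opsin, a receptor bound to a light-absorbing retinal chromophore, activates the G protein transducin. Transducin relieves the inhibition of a phosphodiesterase that breaks down cyclic GMP, and the fall of cyclic GMP closes a cation channel in the outer segment membrane. Arrestin then binds the activated opsin and ends its signal. Cones use gene copies of their own for most of these steps, while rods use a parallel set. Mouse cones can hold the S opsin, the M opsin or both, and in mice the S opsin gene is switched on earlier in development than the M opsin gene.

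The matrices as read here gave 3994 control and 3109 Mettl3-CKO cells. Levels are given as counts per 1000000 UMIs of non-mitochondrial genes (CPM), from UMI sums of each class and library. Mettl3 itself was at 39.5 CPM over all control and 33.1 CPM over all Mettl3-CKO cells, a ratio of 0.837 (0.754 to 0.928). In cone-like cells its ratio was 0.699 (0.430 to 1.14, 33 and 40 UMIs), an interval that includes 1. Whether the 3′ reads cover the deleted part was not given in the sources used here.

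Cone-like cells formed 1 cluster, which was named without the 9 members, since these were kept out of the clustering genes and of the marker list. Of the 10 other cone markers, 9 were higher in the cluster than elsewhere and Clca3a2 had no UMI in either library. Thrb, a thyroid hormone receptor gene needed for the M opsin pattern, was seen in 76.5% of control cone-like cells and 7.60% of other control cells. Kcne2, a potassium channel subunit gene, was seen in 65.3% and 0.308%. The cluster held 98 control cells (2.45% of the library) and 103 Mettl3-CKO cells (3.31%), with a median of 8298 and 13329 UMIs per cell.

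The cone-like Mettl3-CKO cells stood apart in one respect that touches every comparison below. Xist, which is expressed from the inactive X chromosome of females, was seen in 73 of the 103 cells and Y-linked transcripts in 50, so the pool held pups of both sexes. UMIs of both kinds were found in 33 cells (32.04%). In the Mettl3-CKO rod-like, precursor-like, bipolar-like, Müller-like, amacrine-like and RPC-like cells the share was 4.19% to 10.7%. Those classes were shallower, with medians of 4323 to 9768 UMIs per cell against 13329, so the shares were compared at unlike depth. These 33 cells had a median of 20778 UMIs, and the other 70 had 9379. In the control library Xist was seen in 2 of 98 cone-like cells, both with Y-linked UMIs too, and Y-linked transcripts in 67. The libraries thus differed in sex, with few signs of female cells in the control. Predicted doublets, from a score on expression, numbered 3 of the 103 Mettl3-CKO cone-like cells. Whether UMIs of both kinds came from droplets with several cells or from free RNA was not tested. Values are therefore given with all cone-like cells and again without cells that held both kinds of UMIs, called Xist/Y cells here, an exclusion chosen after the data had been seen.

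The promoters of 5 members are listed by RefSeq (GRCm38.p6). Those of both opsins and of the transducin gene Gnat2 are shown, as the opsins had the most unequal UMI numbers and Gnat2 is the only one of the 5 with a TAATCC. Each line gives the 250 bases before the transcription start, 5′ to 3′ on the strand of the gene. Capitals mark TAATCC, the core bound by photoreceptor homeodomain proteins such as CRX, and AGGTCA, the core bound by many nuclear receptors, each searched on both strands with no overlap between them.
Opn1sw: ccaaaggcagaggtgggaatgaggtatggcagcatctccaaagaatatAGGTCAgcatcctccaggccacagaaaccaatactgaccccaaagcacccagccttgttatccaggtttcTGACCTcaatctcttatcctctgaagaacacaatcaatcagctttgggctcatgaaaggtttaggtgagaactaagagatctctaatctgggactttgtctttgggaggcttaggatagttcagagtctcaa
Opn1mw: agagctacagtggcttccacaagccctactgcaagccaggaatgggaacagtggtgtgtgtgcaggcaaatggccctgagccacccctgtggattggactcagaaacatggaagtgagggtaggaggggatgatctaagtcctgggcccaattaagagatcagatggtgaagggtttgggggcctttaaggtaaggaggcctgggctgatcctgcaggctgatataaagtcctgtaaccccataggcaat
Gnat2: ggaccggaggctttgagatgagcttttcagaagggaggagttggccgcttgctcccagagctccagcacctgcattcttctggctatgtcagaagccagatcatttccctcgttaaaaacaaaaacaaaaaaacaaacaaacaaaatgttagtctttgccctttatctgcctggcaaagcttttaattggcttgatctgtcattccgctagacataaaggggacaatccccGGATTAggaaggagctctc
The Opn1sw stretch lies at chr6:29380514-29380763 on the minus strand and holds AGGTCA once as printed, 202 to 197 bases before the start, and once on the opposite strand, 132 to 127 bases before it. The Opn1mw stretch, chrX:74127216-74127465 on the plus strand, holds neither motif. The Gnat2 stretch, chr3:108092816-108093065 on the plus strand, holds TAATCC on the opposite strand, 19 to 14 bases before the start. Among 32851 promoters of this length, 6.25% hold TAATCC and 14.0% hold AGGTCA, so such matches are common and describe letters only. The stretches before Arr3 and Pde6h hold neither. Gene spans given with the levels cover every annotated transcript of a gene (GRCm38), so some begin ahead of the start used here.

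In cone-like cells, 8 of the 9 members were lower in the Mettl3-CKO library and Opn1mw, with few UMIs, was slightly higher. Opn1sw, Arr3, Pde6c and Pde6h were at least 1.5-fold lower, 4 of 9, where 6.06% of the 9061 genes with at least 20 UMIs in these cells were that much lower and 11.5% that much higher. The median log2 ratio (Mettl3-CKO over control) of the members was -0.57 and that of all genes 0.04. With Xist/Y cells left out, the members' median was -0.23, 1 member (Arr3) was 1.5-fold lower against 7.60% of genes, and 1 (Opn1mw, on 6 and 14 UMIs) was higher against 7.84%. The order of the members was similar, with Arr3, Opn1sw, Pde6c and Pde6h lowest and Gngt2 near 0.

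Opn1sw, which encodes the S opsin (chromosome 6, 29376671 to 29388468), was at 6928 CPM (6752 to 7108) in control and 3959.5 CPM (3858 to 4063) in Mettl3-CKO cone-like cells, a log2 ratio of -0.81 (-0.86 to -0.75). The median cell had 6302 CPM among control cells (quartiles 3215 and 9869) and 3636 CPM among Mettl3-CKO cells (quartiles 1269.6 and 7569). The quartile ranges thus overlapped, with more low cells in the Mettl3-CKO library. After each cell was thinned to 1000 UMIs, which left out 5 control cells, an Opn1sw UMI remained in 96.8% (90.9% to 99.3%) of the 93 other control cells. It remained in 80.6% (71.6% to 87.7%) of the 103 Mettl3-CKO cells, while before thinning 97.96% and 98.06% held one. In Müller-like cells, a glial type that lacks cone opsins, 4.47% of control cells (median 8205 UMIs) and 6.36% of Mettl3-CKO cells (median 7883 UMIs) held one. The log2 ratio was -0.52 (-0.58 to -0.46) without Xist/Y cells, and with cells of 15000 or more UMIs left out as well it was -0.24 (-0.31 to -0.17). The sign held, but the size moved with which cells were counted.

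Opn1mw, the M opsin gene (chromosome X, 74127464 to 74150760), had 8 UMIs in control cone-like cells (9.44 CPM, 4.07 to 18.6) and 15 in Mettl3-CKO cells (10.2 CPM, 5.71 to 16.8). The log2 ratio was 0.11 (-1.22 to 1.56), so a difference was not detectable at this depth. One Mettl3-CKO cell held 13 of the 15 UMIs, while no control cell held more than 2. No cell outside the cone-like class had an Opn1mw UMI in either library, which, at 3 cells of the total, allows one to be seen in up to 0.0770% of 3896 control and 0.0998% of 3006 Mettl3-CKO cells.

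Both opsins were seen together in 6 of 98 control cells, or 6.12% with an interval of 2.28% to 12.9%. In the Mettl3-CKO library they were seen in 3 of 103, or 2.91% with an interval of 0.605% to 8.28%, which overlaps the first. No cone-like cell held Opn1mw without Opn1sw: the 6 and 3 cells with an M opsin UMI all held S opsin UMIs, as did 97.96% and 98.06% of all cone-like cells. After thinning to 1000 UMIs, 0 of 93 control cells held both, which by the same limit allows up to 3.23%, and 1 of 103 Mettl3-CKO cells did. S opsin made up 99.9% (99.7% to 99.9%) of opsin UMIs in control and 99.7% (99.6% to 99.9%) in Mettl3-CKO cone-like cells. The 6 control cells with Opn1mw held 2 to 241 Opn1sw UMIs and the 3 Mettl3-CKO cells 5 to 34, so their S opsin levels were uneven.

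The 3 transducin genes differed in how far they were lower. Gnat2, the alpha subunit that binds GTP (chromosome 3, 108092789 to 108101432), was at 1091 CPM (1022 to 1164) in control and 736 CPM (693 to 781) in Mettl3-CKO cone-like cells, a log2 ratio of -0.57 (-0.70 to -0.44). Without Xist/Y cells it was -0.23 (-0.38 to -0.09). Gnb3, the beta subunit (chromosome 6, 124834240 to 124840275), was at 3096 CPM (2978 to 3216) and 2408 CPM (2329 to 2488), a log2 ratio of -0.36, or -0.12 (-0.21 to -0.04) without those cells. Gngt2, the gamma subunit (chromosome 11, 95837216 to 95845734), was at 6793 CPM (6618 to 6970.4) and 6149 CPM (6022 to 6277), a log2 ratio of -0.14 (-0.19 to -0.10). Its ratio turned to 0.06 (0.00 to 0.11) without Xist/Y cells and to 0.23 when cells of 15000 or more UMIs were also left out. Gngt2 was seen in 95.7% of thinned control and 96.1% of thinned Mettl3-CKO cone-like cells.

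Both phosphodiesterase genes were lower. Pde6c, the catalytic subunit (chromosome 19, 38132781 to 38183958), was at 346 CPM (307 to 388) in control and 222 CPM (198 to 247) in Mettl3-CKO cells, a log2 ratio of -0.64 (-0.87 to -0.41). Pde6h, the inhibitory subunit (chromosome 6, 136923832 to 136968865), was at 8569 CPM (8373 to 8769) and 4551 CPM (4443 to 4661), a log2 ratio of -0.91 (-0.96 to -0.86). The median control cell had 7977 CPM of Pde6h (quartiles 4565 and 11881.5) and the median Mettl3-CKO cell 3849.7 CPM (quartiles 1704 and 7718), and thinned detection was 94.6% (87.9% to 98.2%) and 78.6% (69.5% to 86.1%). Pde6h thus resembled Opn1sw, with more low cells in the Mettl3-CKO library. For Pde6c, thinned detection was 23.7% (15.5% to 33.6%) of control and 27.2% (18.9% to 36.8%) of Mettl3-CKO cells, which overlap and lie in the other order. The log2 ratios without Xist/Y cells were -0.49 (-0.76 to -0.22) for Pde6c and -0.48 (-0.53 to -0.42) for Pde6h.

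Cngb3, the beta subunit of the cone channel (chromosome 4, 19280850 to 19510623), was at 350.4 CPM (312 to 393) in control and 274 CPM (248 to 302) in Mettl3-CKO cone-like cells, a log2 ratio of -0.36 (-0.58 to -0.14). Without Xist/Y cells it was -0.22 (-0.48 to 0.03), an interval that includes 0. Arr3, the cone arrestin (chromosome X, 100605497 to 100618493), was at 350.4 CPM (312 to 393) and 171 CPM (150.4 to 193), the lowest ratio of the 9 at -1.04 (-1.28 to -0.79). Its counts were uneven between cells: the median cell had 129 CPM among control and 109 CPM among Mettl3-CKO cells, and the highest cells had 3597 and 2489 CPM. The log2 ratio of Arr3 without Xist/Y cells was -0.62 (-0.90 to -0.35).

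**Figure D1:**
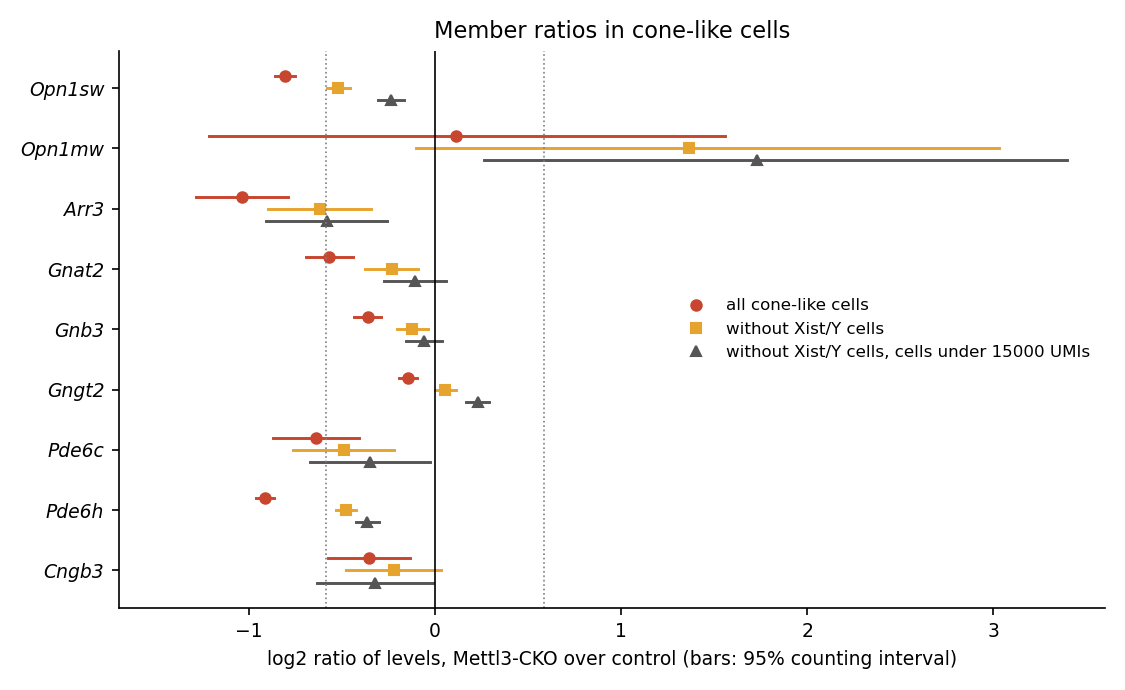
Log2 ratio of each member's level in cone-like cells, Mettl3-CKO over control, with 95% counting intervals and dotted lines at 1.5-fold. With all cells, 4 members lie past the lower line. Without Xist/Y cells the medians move from -0.57 to -0.23, and Gngt2 lies above 0.

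The 33 Xist/Y cells had lower levels of the members than the rest of the Mettl3-CKO cone-like cells. Opn1sw was at 3063 CPM in them and 4806 CPM in the other 70 cells, Pde6h at 2874 and 6135 CPM, and Gngt2 at 5185 and 7058 CPM. A comparison within males is possible for cells with Y-linked UMIs and no Xist, of which there were 65 control and 17 Mettl3-CKO cells. In these, Opn1sw had a log2 ratio of -0.67 (-0.77 to -0.57), Arr3 of -0.72 (-1.21 to -0.27) and Pde6h of -0.55 (-0.64 to -0.46). The ratios of Gnat2 (-0.16), Gnb3 (0.04), Gngt2 (-0.01), Pde6c (-0.31) and Cngb3 (-0.04) had intervals that include 0, and Opn1mw had 6 and 0 UMIs. The members were thus not equally lower in male cells, with Opn1sw, Arr3 and Pde6h furthest from 0.

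**Figure D2:**
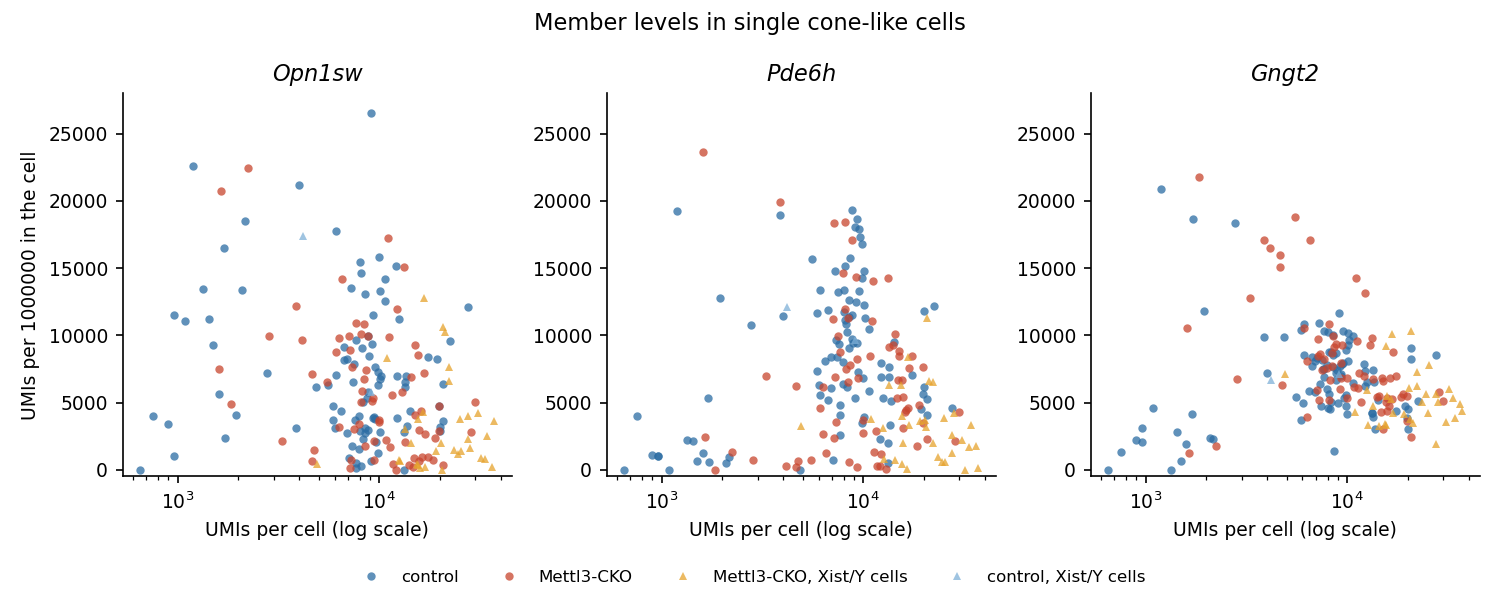
Level of Opn1sw, Pde6h and Gngt2 (UMIs per 1000000 in the cell, linear axis) against the UMIs of the cell (log axis), 1 point for each of the 98 control and 103 Mettl3-CKO cone-like cells. Triangles mark cells with UMIs of both Xist and Y-linked genes, 33 of them in the Mettl3-CKO library, which lie mostly at the right and low in each panel.

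Other genes of the pathway in the same cells are given here from lists of related genes. Of 14 further phototransduction genes with at least 20 UMIs, 2 were at least 1.5-fold lower in Mettl3-CKO cone-like cells (6.06% of all genes) and 0 higher (11.5%), with a median log2 ratio of -0.35. Without Xist/Y cells these counts were again 2 and 0 (7.60% and 7.84% of all genes) and the median -0.12. The lower ones, Guca1a and Guca1b, encode calcium sensors of guanylate cyclase, the enzyme that restores cyclic GMP. Guca1a was at 2363 CPM in control and 1289.9 CPM in Mettl3-CKO cells, and at 2365 and 1567 CPM without Xist/Y cells. Cnga3, the partner of Cngb3 in the channel, was at 76.7 and 60.6 CPM (log2 ratio -0.34) and at 74.3 and 72.8 CPM without those cells. Of 12 genes of cone transcription and opsin patterning, 1 (Sall3) was lower (6.06% of all genes) and 1 (Otx2) higher (11.5%) by 1.5-fold. Without Xist/Y cells 0 of 11 were either (7.60% and 7.84% of all genes). Thrb was at 383 and 357 CPM (log2 ratio -0.10) and, without those cells, at 375 and 417 CPM (0.15), with intervals that include 0 in both cases. Rxrg, its partner receptor gene, was at 153 and 134 CPM, and at 152 and 134 CPM without those cells.

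The 9 cone markers that were not members also had a negative median, -0.44, with 3 (Sall3, Kcne2, Otop3) at least 1.5-fold lower (6.06% of all genes). Without Xist/Y cells the median was -0.20 and 1 of 9 (Kcne2) was that much lower (7.60% of all genes). Of the summed UMIs of these markers, Ccdc136 alone held 1409 of 2666 in control and 1938 of 3568 in Mettl3-CKO cells. It was not confined to cone-like cells, being seen in 38.9% and 39.8% of other cells. When the members were scaled to this sum in place of all UMIs, their median was -0.20, and the ratios of Gnb3 (0.01), Gngt2 (0.23) and Cngb3 (0.02) were above 0. Rod genes were on both sides of 0. Of 8 rod counterparts of the members with at least 20 UMIs, 5 were at least 1.5-fold higher (11.5% of all genes). That much lower were 0 (6.06%), and the median was 0.97. Without Xist/Y cells 3 of 8 were higher (7.84% of all genes) and the median was 0.54. Sag, Gngt1 and Pde6g, which held most UMIs of this list, had log2 ratios of -0.14, -0.15 and -0.09. Without Xist/Y cells these were -0.29, -0.16 and 0.10. All 9 listed counterparts were summed at 8042 CPM in control and 8184 CPM in Mettl3-CKO cone-like cells. The sums were 8066 and 7978 CPM without Xist/Y cells. Cngb1, the beta subunit of the rod channel, was at 83.8 CPM in control and 250.5 CPM in Mettl3-CKO cone-like cells, and at 85.1 and 152 CPM without Xist/Y cells. The rod markers were summed at 7267 and 9097 CPM, with 4 of 6 genes higher by 1.5-fold (11.5% of all genes) and a median of 1.08. Among these, Nrl and Nr2e3 were at 373 and 937 CPM in control cone-like cells, below the 885 and 2006 CPM of all other control cells. In all Mettl3-CKO cone-like cells they were at 803 and 1986 CPM, above the 767.5 and 1716 CPM of all other Mettl3-CKO cells. In the Mettl3-CKO cone-like cells without Xist/Y cells they were at 561 and 1334 CPM, below those 767.5 and 1716 CPM. The rod marker sums were 7287 and 8166 CPM without Xist/Y cells, with 2 of 6 (Rp1, Pde6b) higher (7.84% of all genes) and a median of 0.53. The log2 ratios of Nrl and Nr2e3 were then 0.57 (0.36 to 0.79) and 0.49 (0.36 to 0.63). Gnat1, the rod transducin, had 4 and 15 UMIs in all cone-like cells. The part of these rod transcripts and of depth in the members' ratios was not tested.

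Outside the cone-like cells the members fell into 2 patterns. Opn1sw, Opn1mw, Arr3, Gnat2, Pde6c and Pde6h had 83.7% to 100% of their UMIs in the cone-like class in either library. Gngt2 had 16.2% (control) and 24.8% (Mettl3-CKO) of its UMIs there, Gnb3 20.5% and 31.9%, and Cngb3 30.6% and 36.4%. These 3 genes were instead spread over rod-like, precursor-like, bipolar-like and unnamed cells. All 9 together had 35.7% of their control UMIs and 42.3% of their Mettl3-CKO UMIs in cone-like cells, and 35.6% of the latter without Xist/Y cells.

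**Figure D3:**
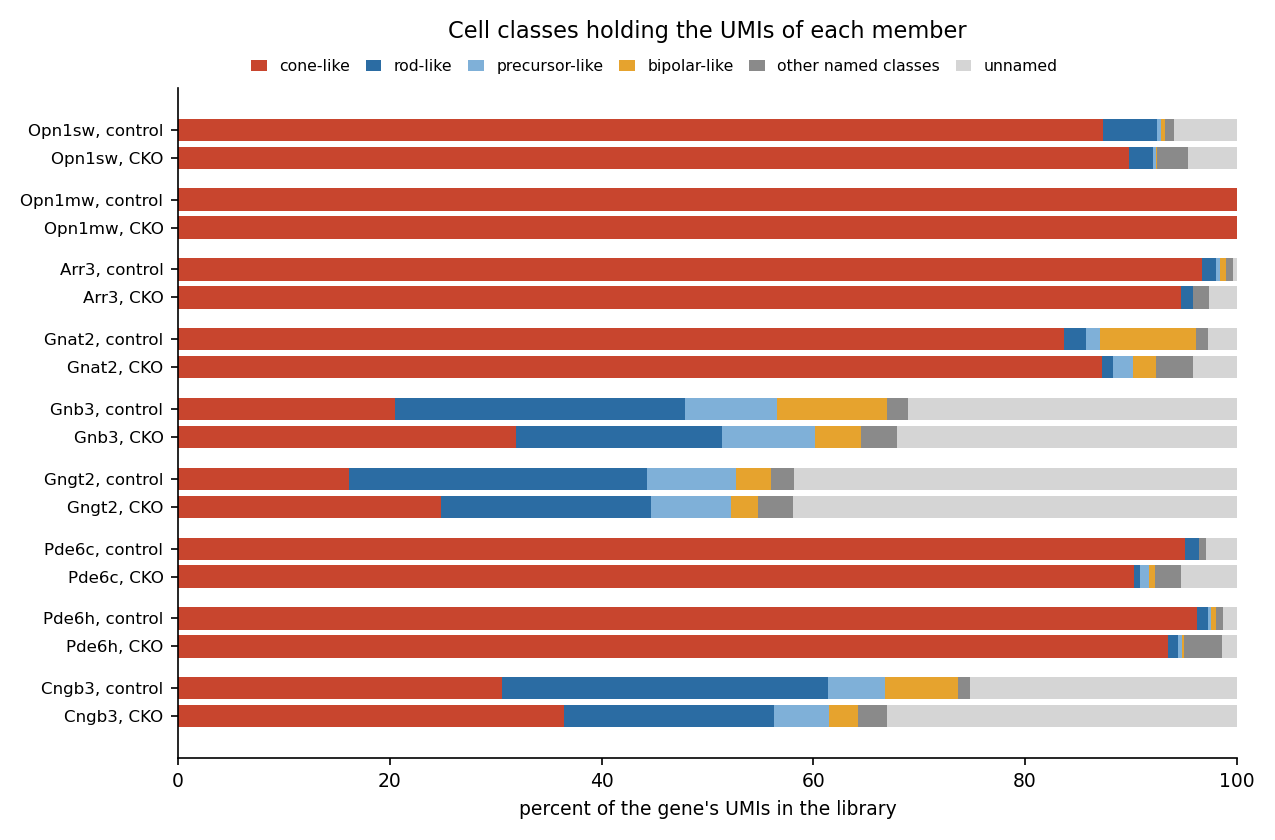
Percent of each member's UMIs in a library that lie in each cell class, on bars that sum to 100 (other named classes are Müller-like, amacrine-like, RPC-like and microglia-like). The bars of Gnb3, Gngt2 and Cngb3 are mostly outside the cone-like class, and those of the other 6 members are 83.7% or more within it.

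In rod-like cells (1149 control, 647 Mettl3-CKO), Gngt2 was at 2236 and 2292 CPM, a log2 ratio of 0.03 (-0.01 to 0.08), and was seen in 85.1% and 83.9% of cells. Gnb3 was at 784 and 681 CPM (-0.20, -0.28 to -0.13), and Cngb3 at 66.9 and 69.2 CPM (0.05, -0.21 to 0.30). In Müller-like cells Gngt2 was at 129 and 216 CPM, Gnb3 at 45.7 and 83.7 CPM and Cngb3 at 1.77 and 5.62 CPM, so the rod-like levels lay well above that background. Opn1mw had no UMI in rod-like cells, and Arr3 and Pde6c had 2 to 4 UMIs in each library. Opn1sw was the only one of the 6 members with at least 20 UMIs that was 1.5-fold lower, against 3.64% of genes lower and 5.13% higher, and the members' median was -0.08. It was at 75.6 CPM in control and 46.1 CPM in Mettl3-CKO rod-like cells, a log2 ratio of -0.71 (-1.003 to -0.43), and at -0.68 without Xist/Y cells. Where each cell was named by its own markers without clusters, the ratio of Opn1sw was 0.35 and the members' median 0.71, and with libraries clustered separately the median was 0.50, so these directions rested on how rod-like cells were drawn.

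Within the rod-like class the members differed between clusters, which are called here by Cnga1, the alpha subunit of the rod channel and a leading gene of the cluster where it is high, chosen after its values were seen. One cluster (485 control, 310 Mettl3-CKO cells) had Cnga1 at 161 and 195 CPM and another (396 and 250 cells) at 743 and 707 CPM, with nearly equal median depths of 4307 to 4826 UMIs. Opn1sw was at 126 CPM (112 to 143) in the low-Cnga1 and 20.3 CPM (14.4 to 27.8) in the high-Cnga1 control cells. For Mettl3-CKO cells these values were 55.9 CPM (44.1 to 69.8) and 38.3 CPM (29.3 to 49.1). The low-Cnga1 cells were thus lower in the Mettl3-CKO library (-1.18, -1.56 to -0.81) and the high-Cnga1 cells higher (0.91, 0.31 to 1.53). The control UMIs of the low-Cnga1 cluster came from 77 cells, 13 of them with 5 or more UMIs, and without the 5 highest cells 163 of 264 UMIs were left.

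Gngt2 was likewise lower in the high-Cnga1 cluster, at 1099.5 against 3087 CPM for control and 1508 against 3077 CPM for Mettl3-CKO cells. Its ratio between libraries was 0.00 in the low-Cnga1 and 0.46 (0.37 to 0.54) in the high-Cnga1 cells. Gnb3 differed less, at 701 against 847 CPM for control and 626 against 748 CPM for Mettl3-CKO cells, and Cngb3 was at 62.5 to 79.1 CPM in all 4. Pde6h was at 14.4 to 16.7 CPM in 3 of these 4 and at 28.2 CPM (20.6 to 37.8) in high-Cnga1 Mettl3-CKO cells, above its 8.51 CPM (5.45 to 12.7) and 8.98 CPM (5.14 to 14.6) in Müller-like cells. A remaining, shallower rod-like cluster, with a median of 1618.5 and 2293 UMIs per cell, had Opn1sw at 76.0 and 41.6 CPM and Gngt2 at 3088 and 3165 CPM.

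**Figure D4:**
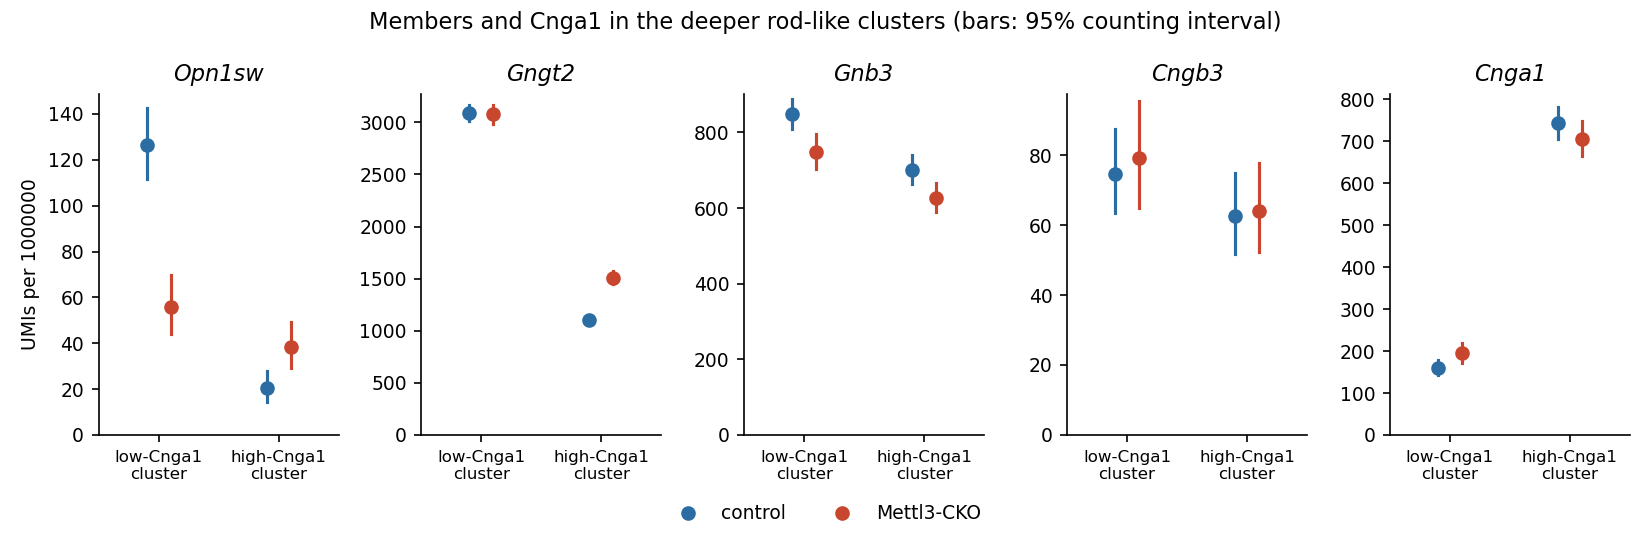
Levels of Opn1sw, Gngt2, Gnb3, Cngb3 and Cnga1 (UMIs per 1000000, linear axes from 0) in the low-Cnga1 and the high-Cnga1 rod-like cluster of each library, with 95% counting intervals. Opn1sw and Gngt2 are higher in the low-Cnga1 cluster of both libraries, and Opn1sw of the control there, at 126 CPM, is highest.

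In precursor-like cells (443 control, 454 Mettl3-CKO), the same 3 genes held most member UMIs. Gngt2 was at 993 and 906 CPM (log2 ratio -0.13, -0.21 to -0.06), Gnb3 at 371 and 321 CPM (-0.21, -0.34 to -0.08) and Cngb3 at 17.2 and 19.2 CPM (0.15, -0.41 to 0.72). Opn1sw, at 7.96 and 6.62 CPM, and Pde6h, at 8.29 and 7.28 CPM, had intervals that overlap those of Müller-like cells, where Opn1sw was at 7.09 and 13.5 CPM, and were read as background. Gnat2 was the only member past 1.5-fold, 1 of 6 (14 and 24 UMIs, 0.77, -0.24 to 1.84), against 7.17% of genes higher and 3.66% lower. The median of the 6 was -0.16. With libraries clustered separately the ratio of Gngt2 was 0.35, that of Gnb3 0.11 and the median 0.27, and naming each cell by its own markers gave a median of 0.35, so these directions also rested on how the class was drawn.

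In bipolar-like cells (212 control, 140 Mettl3-CKO), Gnb3 and Gngt2 held most member UMIs, and Gnat2 lay above its level in Müller-like cells. Gnb3 was at 750.4 and 424 CPM (log2 ratio -0.82, -0.98 to -0.67) and Gngt2 at 660.0 and 840.1 CPM (0.35, 0.22 to 0.47). Gnat2 was at 56.1 and 24.1 CPM (-1.22, -1.89 to -0.60), spread over 30.2% of control cells (median 8070 UMIs) with at most 5 UMIs in a cell, where 1.58% of control Müller-like cells held it. Of 26 Opn1sw and 34 Pde6h control UMIs, single cells held 18 and 24. Of 6 members with at least 20 UMIs, 4 (Opn1sw, Gnat2, Gnb3, Pde6h) were 1.5-fold lower, against 10.8% of genes lower and 9.39% higher. The bipolar markers of the class moved in the same direction: 5 of 7 were 1.5-fold lower, their sum was 1176 CPM in control and 293 CPM in Mettl3-CKO cells, and their part in the members' ratios was not tested. The members' median of -0.72 became 0.14 without predicted doublets and 0.20 with cells named by their own markers.

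**Figure D5:**
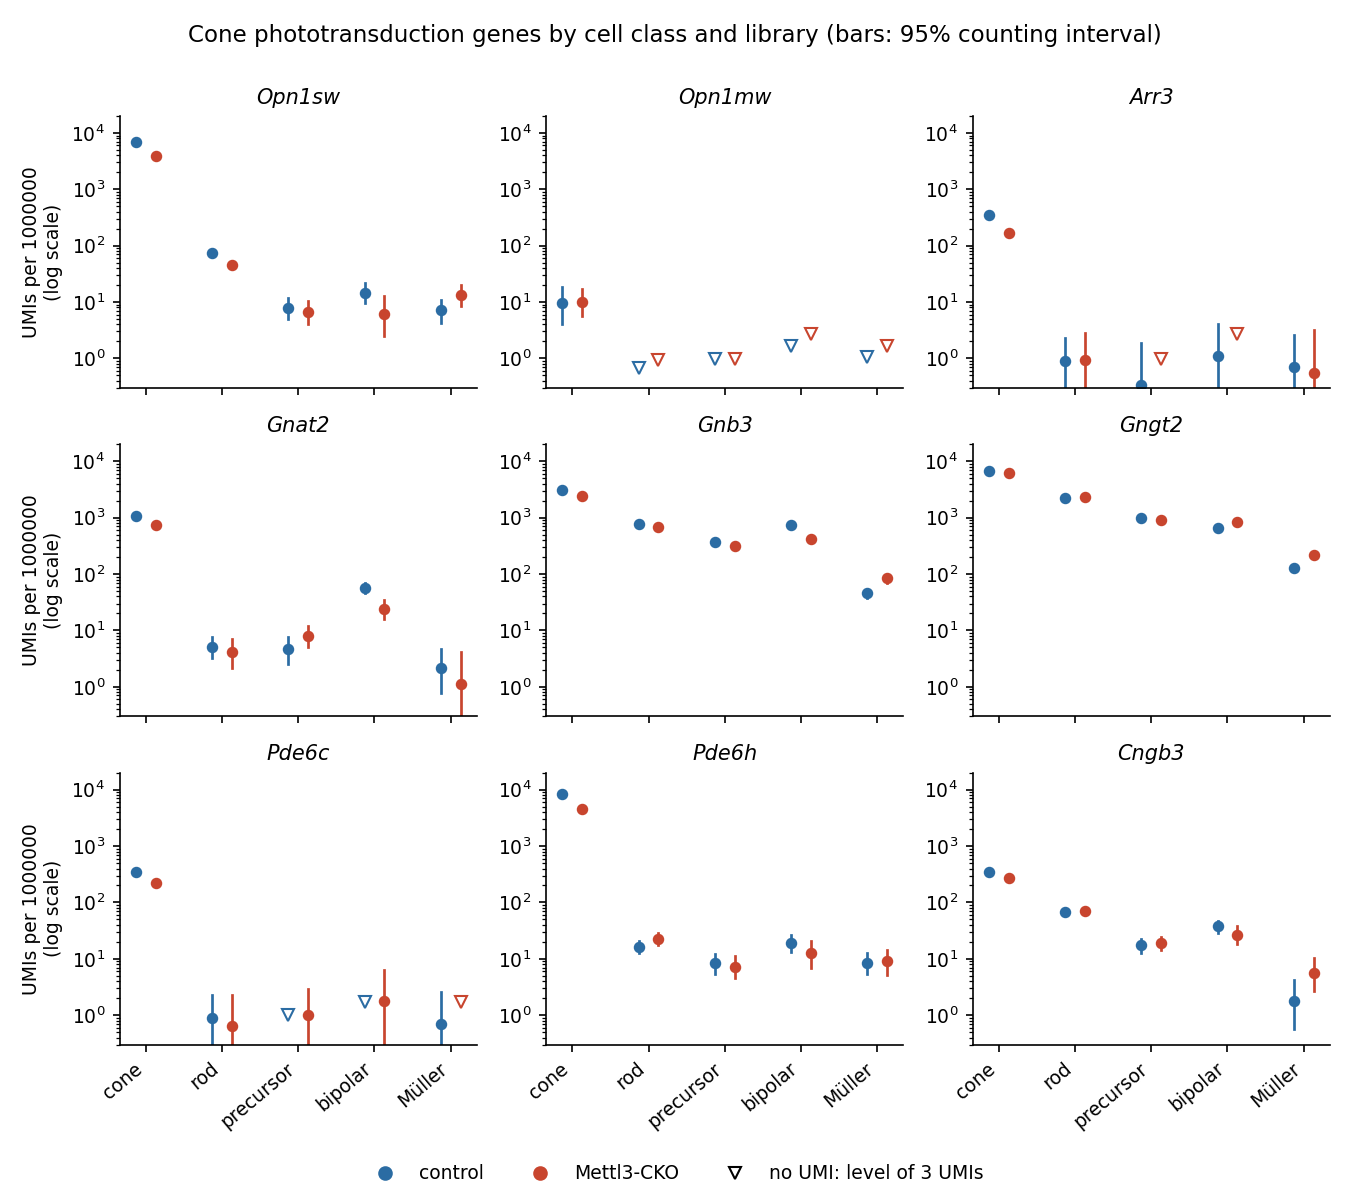
Level of each member (UMIs per 1000000, log axis) in 5 cell classes of the control and Mettl3-CKO libraries, with 95% counting intervals. Open triangles stand at the level of 3 UMIs where no UMI was found. Opn1mw has points in the cone class only, and Gnb3 and Gngt2 are well above their Müller-like levels in rod-like, precursor-like and bipolar-like cells.

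In Mettl3-CKO amacrine-like and RPC-like cells, Opn1sw and Pde6h UMIs came mainly from single cells. Of 112 Opn1sw UMIs in Mettl3-CKO amacrine-like cells, 100 lay in 1 cell, as did 135 of 144 Pde6h UMIs in the highest cell. In Mettl3-CKO RPC-like cells the highest cells held 33 of 51 Opn1sw and 82 of 100 Pde6h UMIs. In Müller-like cells the UMIs were more spread. Opn1sw had 20 control UMIs with at most 4 in a cell and 24 Mettl3-CKO UMIs with at most 8. Pde6h had 24 and 16 UMIs there, with at most 1 in a cell. An unnamed cluster led by Pcp2 (343 control, 230 Mettl3-CKO cells) had Opn1sw at 166 and 96.1 CPM (-0.79, -1.14 to -0.45) and Gngt2 at 4624 and 4999 CPM.

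The genes whose level was most like the summed level of the 9 members, over the 16 sums of 8 named classes in 2 libraries and 11354 genes, were Nsf (Pearson r 0.947), Chrnb4 (0.944), Syp (0.935), Ankrd12 (0.932) and Arfgef1 (0.932). Nsf, a membrane fusion ATPase gene, was at 217 and 185 CPM in cone-like and 112 and 128 CPM in rod-like cells. Syp encodes the synaptic vesicle protein synaptophysin. The sums come from 2 libraries and share their depth, and the correlations are a description. Among the members, Cngb3 was closest to the sum of the other 8 (r 0.967) and Pde6h furthest (0.721).

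Where the annotation places another gene on the opposite strand, UMIs could include those of the neighbour, since the strand setting of the counting was not given in the sources used here. This holds for Opn1sw, Opn1mw, Gngt2 and Pde6h, while Arr3, Gnat2, Gnb3 and Pde6c overlap no gene and Cngb3 overlaps 1 gene that was not counted.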

How the data were processed

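UMI counts per gene and cell were used as deposited by the authors, unnormalized. Per the labels, the authors' processing used Cell Ranger 3.1.0 and Seurat 3.1 on the mm10 (GRCm38) mouse genome. The matrices as read here stopped before the number of entries that they name, so 3994 of 5995 control and 3109 of 6992 Mettl3-CKO barcodes were analysed, with 22181683 and 20830028 UMIs. No cell was left out, although 237 and 86 cells had at most 200 genes or at least 20% mitochondrial UMIs, and 5 barcodes occurred in both libraries.

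Counts scaled to 10000 per cell were clustered (2000 variable genes, 10 principal components, 20 neighbours, Leiden resolution 1; leidenalg 0.10.2, scikit-learn 1.9.0, scipy 1.17.1, Python 3.11.15). A cluster was named "-like" from at least 3 markers, each 1.5-fold higher than elsewhere (after 10 CPM was added) and in 10% of its cells, the last limit being set after the clusters were seen. The highest 6% of Scrublet scores (scanpy 1.11.5) counted as predicted doublets, since its own limit marked under 0.5% of cells. Members of the list and all gene lists were chosen with earlier results of these data known. Levels carry exact Poisson, ratios conditional binomial and shares Clopper-Pearson 95% intervals. UMI sums of at least 20 were needed for medians and counts. One gene of the rod lists is not reported here, and the list counts leave it out. Named genes were the members, list genes beside them, Mettl3 and the 5 most like genes (log2(CPM + 1), at least 100 UMIs). The computation of the ratio intervals was checked on simulated sums drawn from the Poisson model that they assume. They held the true ratio for 96.2% of 8905 genes in cone-like and 96.0% of 10535 genes in rod-like cells. The simulation had no spread between cells or pups, so it cannot show that the intervals hold for the real counts.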

Additional observations from a re-analysis of the deposited data

Results flagged for a closer look

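Xist and Y-linked genes were no part of the comparisons, and 33 Mettl3-CKO cone-like cells held UMIs of both, against 2 control cone-like cells. Xist was seen in 2 of 98 control and 73 of 103 Mettl3-CKO cone-like cells. Values of the members without these cells stand beside those with them.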

How the results depend on the processing

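The cone-like result moved with which cells were counted and with the scaling. The members' median log2 ratio there, -0.57 with all cells, was -0.34 as a mean of per-cell levels, -0.37 with cells named by their own markers, -0.20 for Mettl3-CKO cells without Xist at 4000 or more UMIs, -0.23 without Xist/Y cells, -0.24 when cells of 15000 or more UMIs were also left out, and -0.20 scaled to the other cone markers. The last 3 were chosen after seeing the data. In cone-like cells the sign of Gngt2 turned to 0.0676, 0.0944, 0.0560, 0.23 and 0.23 under the per-cell mean, the cells without Xist, those without Xist/Y cells, the same under 15000 UMIs and the marker scaling. Gnb3 turned to 0.0271 without Xist and to 0.0103 under marker scaling, and Cngb3 to 0.0163 under marker scaling. Naming cells by their own markers gave a rod-like median of 0.71 with Opn1sw there at 0.35, and a bipolar-like median of 0.20. The latter was 0.14 without predicted doublets. With libraries clustered separately, precursor-like Gnb3 was 0.11 and Gngt2 0.35, and no bipolar-like class was named in both libraries. With free RNA subtracted, the precursor-like median was -0.62 and bipolar-like Gngt2 -0.0075. Of 94 recomputed main values 70 stayed within the counting interval, and of 400 for single genes 311 did and 12 changed sign. The cause of these changes was not tested.

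The share of member UMIs in cone-like cells (35.7% control, 42.3% Mettl3-CKO) was 37.4% and 43.8% with cells named by their own markers, 36.5% and 45.3% without predicted doublets, and 41.2% and 45.4% for cells of at least 4000 UMIs. With Xist it was 46.6% and without Xist 41.9% in the Mettl3-CKO library. It was 43.3% there with members among the clustering genes, 43.2% with libraries clustered separately and 35.6% without Xist/Y cells. The S opsin share differed by -0.12 percentage points, and by 0.14 for Mettl3-CKO cells without Xist. After thinning to 1000 UMIs, no ratio of opsin co-detection could be had, as 0 control cells held both opsins. It was 0.84 (0.0533 to 13.2) after thinning to 2000 UMIs, on 1 cell in each library, and 0.476 (0.122 to 1.85) without thinning. No paired analysis was possible because each group held 1 library. Opn1mw, at 8 and 15 UMIs, is the member most limited by depth.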
